A study of Mus musculus with 4 samples.

Results

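Promoter-flank intervals are accessible stretches that the authors placed in a promoter but whose summit lay more than 1000 bases from the start of every gene assigned to them. They were taken from ATAC-seq of mouse bone marrow LSK cells (Lin-Sca1+Kit+), a sorted gate that holds blood stem cells and early progenitors. A row was a member when it carried at least 1 promoter and every listed distance from summit to start was above 1000 bases in size, upstream or downstream. This gave 21181 of 220733 intervals, and merging members that shared at least 1 base across libraries gave 7211 regions, against 69759 regions when all intervals were merged. The groups were p53R248W/+, from mice with 1 mutant allele of the tumor suppressor p53 (R248W libraries 1 and 2), and p53+/+ wild type (WT libraries 1 and 2), with 50000 cells per library. The sources used here give neither strain nor age. Whether replicate libraries were made from different mice is not stated either, so the spread between them may be technical. The study asked how mutant p53 regulates transcription in these cells.

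ATAC-seq uses a transposase that cuts and tags DNA where chromatin is open, so accessible stretches collect reads. The most open stretch of an active gene usually lies right at its transcription start, often on a CpG island, where the polymerase and general factors assemble. The flanks hold proximal enhancers, alternative start sites and starts of neighboring transcripts. In blood stem cells, many binding sites of lineage factors such as GATA2, RUNX1 and TAL1 lie in such elements away from the start.

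The strongest members at a second start of their own gene show what a flank interval can hold. RefSeq lists further starts for many genes, and 470 RefSeq starts lay inside a flank interval of all 4 libraries, in 355 of the 3436 such regions matched here, and 334 of them were starts of the flanked gene itself. Printed here are the 250 bases before the RefSeq start (GRCm38.p6, the assembly of mm10) nearest to the summit for the 5 regions with the highest lowest-library percentile of signal and a summit within 500 bases of a start of the flanked gene, 5′ to 3′ along the gene. Capitals mark, on either strand, the GC box GGGCGG of SP and KLF factors, the CCAAT box, the ETS core CCGGAA and the NRF1 core TGCGCA. Matches of the GC box can overlap each other.
Zbtb18, chr1:177442101-177442350, plus strand: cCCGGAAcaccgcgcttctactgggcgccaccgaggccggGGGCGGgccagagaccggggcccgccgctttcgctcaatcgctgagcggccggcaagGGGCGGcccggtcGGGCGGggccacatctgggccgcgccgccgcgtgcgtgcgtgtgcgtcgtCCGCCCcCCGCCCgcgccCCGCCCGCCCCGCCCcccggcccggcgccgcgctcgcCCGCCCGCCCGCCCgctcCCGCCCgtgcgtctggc
Add3, chr19:53142506-53142755, plus strand: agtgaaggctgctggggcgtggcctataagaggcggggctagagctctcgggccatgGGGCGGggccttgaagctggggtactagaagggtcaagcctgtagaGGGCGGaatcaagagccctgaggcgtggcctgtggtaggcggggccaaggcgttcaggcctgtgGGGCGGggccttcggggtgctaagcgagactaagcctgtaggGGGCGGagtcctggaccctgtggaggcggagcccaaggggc
Birc2, chr9:7837058-7837307, minus strand: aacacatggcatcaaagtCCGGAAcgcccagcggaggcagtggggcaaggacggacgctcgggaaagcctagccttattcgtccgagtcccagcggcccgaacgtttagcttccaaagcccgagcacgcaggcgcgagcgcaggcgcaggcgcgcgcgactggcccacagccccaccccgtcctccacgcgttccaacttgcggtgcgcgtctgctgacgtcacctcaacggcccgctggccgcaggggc
Msantd4, chr9:4376302-4376551, plus strand: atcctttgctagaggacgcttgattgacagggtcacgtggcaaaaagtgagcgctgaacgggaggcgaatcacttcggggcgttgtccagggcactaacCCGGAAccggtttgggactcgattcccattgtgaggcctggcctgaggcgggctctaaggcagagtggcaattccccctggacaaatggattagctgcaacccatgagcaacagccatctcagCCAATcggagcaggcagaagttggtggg
Ing1, chr8:11558160-11558409, plus strand: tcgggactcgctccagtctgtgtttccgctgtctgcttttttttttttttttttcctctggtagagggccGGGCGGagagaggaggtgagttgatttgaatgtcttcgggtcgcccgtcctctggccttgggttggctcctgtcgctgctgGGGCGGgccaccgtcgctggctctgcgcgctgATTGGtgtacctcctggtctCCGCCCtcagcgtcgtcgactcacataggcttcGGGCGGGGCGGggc

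The region at Zbtb18, a zinc finger repressor gene, ranked first among the upstream members and held 12 GC boxes in this window. Its summit lay 2613 bases upstream of the start the authors used and 303 bases from the RefSeq start shown. Add3, which encodes an adducin of the membrane skeleton, held 4 GC boxes, and Ing1, a gene for a histone-mark reader, held 5 with 1 CCAAT box. Birc2, the gene of an inhibitor-of-apoptosis ubiquitin ligase, had 1 ETS core and no GC box, with its summit 33 bases from that start. Msantd4 had 1 ETS core and 1 CCAAT box, 7151 bases upstream of its assigned start.

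Over all 469 distinct windows before RefSeq starts inside flank intervals of all 4 libraries, the GC box was present in 58.4%, against 32.7% of the 32817 windows of the same length before all RefSeq starts. The CTCF core AGGGGGC was present in 17.7%, against 9.43%, the ETS core CCGGAA in 15.1%, against 12.0%, and the NRF1 core in 8.96%, against 6.42%. The shares ran the other way for CCAAT (27.1%, against 33.8%), the TATA box TATAAA (6.61%, against 12.4%), the GATA core AGATAA (4.05%, against 9.99%), the RUNX core TGTGGT (10.4%, against 14.0%) and the ETS core CAGGAA (21.3%, against 25.7%). The AP-1 site TGANTCA (6.18%, against 6.75%) and the E-box CAGCTG (12.2%, against 13.0%) were close to their shares before all starts. All were counted on both strands, and the ETS cores share the letters GGAA. The median GC content was 61.2%, against 52.4% before all starts, and the median CpG observed over expected was 0.673, against 0.373. The motif shares were adjusted for neither. The 32817 windows were not selected for openness in these cells, so the shares do not set flank starts against other open starts. These windows start from RefSeq starts, so they do not describe flank intervals without one.

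Flank regions next to microRNA genes form a second readable set, because the listed start of a microRNA gene is that of its hairpin, while its primary transcript often begins further upstream. There were 157 regions flanking 162 microRNA genes, and 94 of the regions (59.9%) were called in all 4 libraries, against 56.1% of all promoter-flank regions and 58% of all merged regions. The mature sequences of the leading ones (RefSeq, GRCm38.p6) are shown with the seed, bases 2 to 8, in capitals.
mmu-let-7a-5p, chr13:48538239-48538260, minus strand: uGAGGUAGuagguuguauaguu
mmu-let-7f-5p, chr13:48537889-48537910, minus strand: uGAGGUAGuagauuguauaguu
mmu-miR-17-5p, chr14:115043684-115043706, plus strand: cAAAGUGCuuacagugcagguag
mmu-miR-20a-5p, chr14:115044183-115044205, plus strand: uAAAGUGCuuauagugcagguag
mmu-miR-19a-3p, chr14:115044048-115044070, plus strand: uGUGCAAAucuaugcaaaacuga
mmu-miR-19b-3p, chr14:115044358-115044380, plus strand: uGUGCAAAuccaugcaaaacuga
mmu-miR-142a-3p, chr11:87756903-87756925, plus strand: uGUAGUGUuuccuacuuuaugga
mmu-miR-21a-5p, chr11:86584120-86584141, minus strand: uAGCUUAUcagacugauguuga

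The let-7a and let-7f arms share the seed GAGGUAG, miR-17 and miR-20a share AAAGUGC, and miR-19a and miR-19b share GUGCAAA. The region upstream of Mirlet7a-1 and Mirlet7f-1, genes of the let-7 family known to restrain growth and stem cell programs, had signals of 826 and 488 in R248W libraries 1 and 2, against 453 and 721 in WT libraries 1 and 2. The region upstream of Mir17, Mir18, Mir19a, Mir20a, Mir19b-1 and Mir92-1, the proliferation-linked cluster, had 392 and 279 in R248W, against 283 and 428 in WT, with its summit 2871 bases before the Mir17 hairpin. Mir142, a microRNA of blood cells, had 417 and 296 in R248W, against 230 and 409 in WT, at 7264 bases upstream. Mir21, a widely induced microRNA, had 327 and 231 in R248W, against 214 and 338 in WT, at 2866 bases upstream. All 4 regions were called in every library. As percentiles among the flank intervals of the same library, the let-7 region lay at 99.95 and 99.90 in R248W, against 99.89 and 99.87 in WT, and the Mir17 region at 97.73 and 98.33 in R248W, against 98.42 and 98.48 in WT, while Mir142 and Mir21 overlapped. Over the 3526 regions with a flank interval in all 4 libraries, both R248W percentiles were above both WT percentiles in 13.9% and below both in 8.93%. These orders are given as a description with no test.

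Signal here is the authors' highest-bin value, a whole number whose normalization no source used here gives. The median signals of R248W library 1 and WT library 2, the libraries with the longest lists (60385 and 62478 intervals), were higher in every class than those of R248W library 2 and WT library 1 (51150 and 46720 intervals), and each genotype has 1 of either kind, so raw signals were not compared between genotypes, and an overlap of raw signals says nothing about them. Kit, a gene of the sorting gate, had a start-site interval in all 4 libraries and Ly6a, which encodes Sca1, in none. Of 11 stem and progenitor markers, 7 had one in all 4 libraries and 4 in none, among them Gata2 and Tal1. Of 9 lineage markers, 6 had one in no library, among them Cd3e and Cd8a, and Itgam was among those with one in all 4.

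Flank intervals numbered 5828 and 4821 in R248W libraries 1 and 2, against 4451 and 6081 in WT libraries 1 and 2. They were 9.65% and 9.43% of all intervals in R248W, against 9.53% and 9.73% in WT, with 95% Wilson intervals no wider than 0.266 points either side, which cover counting error only. The mean was 5324.5 ± 712 in R248W and 5266 ± 1153 in WT (SD, n = 2 libraries each). The groups overlapped, and a two-sided exact permutation test of the difference gave p = 1, where 2 against 2 libraries cannot go below 0.33. The count followed the length of each library's list.

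Upstream placing made up most of the members. The interval lay upstream of every flanked start for 75.7% and 75.1% of members in R248W libraries 1 and 2, against 75.2% and 75.2% in WT libraries 1 and 2. Members downstream of every flanked start made up 20.0% and 20.8% in R248W, against 20.9% and 20.6% in WT, and the remaining 4.31% and 4.11% in R248W, against 3.93% and 4.21% in WT, were upstream of 1 gene and downstream of another. The authors' window, recovered from the table, ran from 7500 bases before to 2500 bases after a start, so the upstream side was the longer one. With an interval counted once per flanked gene, the upstream side held 698 and 574 per kb of window beyond 1000 bases in R248W and 527 and 724 in WT. The downstream side held 703 and 620 in R248W and 565 and 742 in WT. Counted this way, upstream members were no denser per kb than downstream members in any library. About 90% of the members lay in the window of 1 gene (90.05% and 90.3% in R248W, against 90.4% and 90.3% in WT).

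**Figure D1:**
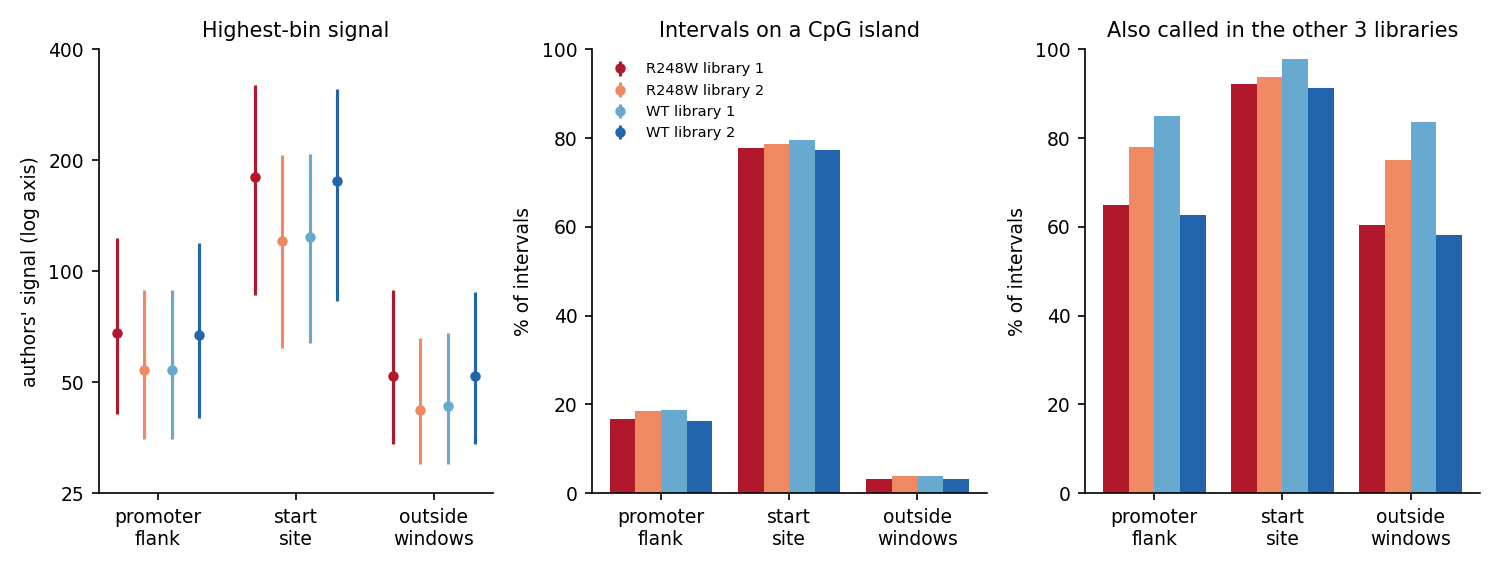
Highest-bin signal (median, with bars to the 25th and 75th percentiles, log axis), share of intervals on a CpG island and share also called in the other 3 libraries, for promoter-flank intervals, start-site intervals and intervals outside promoter windows in each of the 4 libraries. In each library flank intervals sit between the other classes on all 3 measures, and far nearer to the intervals outside promoter windows.

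Flank intervals were weaker, shorter and less often on a CpG island than start-site intervals, those of a promoter with a summit within 1000 bases of a start. Their median signal was 68 and 54 in R248W libraries 1 and 2 and 54 and 67 in WT libraries 1 and 2, against 180, 121, 124 and 176 at start sites in the same order of libraries. Intervals outside promoter windows had 52, 42, 43 and 52. The log2 ratio of flank to start-site signal averaged -1.29 ± 0.13 (SD, n = 4 libraries), lower in 4 of 4 libraries (two-sided exact sign-flip test, p = 0.13, the smallest that 4 libraries allow, adjusted p = 0.13 over 4 measures). Against the intervals outside promoter windows it averaged 0.36 ± 0.024, higher in 4 of 4 (exact p = 0.13).

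CpG islands lay under 16.7% and 18.5% of flank intervals in R248W and 18.6% and 16.2% in WT, against 77.6, 78.7, 79.6 and 77.3% of start-site intervals in the same order. Intervals outside promoter windows had 3.17 to 3.86%. Median length was 1132 and 1096 bases in R248W and 1124 and 1105 bases in WT, against 1640 to 1784 bases at start sites. Both measures were lower in flank than in start-site intervals in 4 of 4 libraries (exact p = 0.13 each). A member on a CpG island was stronger, with medians of 116 and 84.5 in R248W and 83 and 113 in WT, against 62, 50, 51 and 62 for members off an island, and 83.6, 86.2, 93.6 and 82.7% of them were also called in the other 3 libraries, against 61.1, 76.0, 82.9 and 58.7%.

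Over the whole window, downstream members resembled start sites more than upstream members did. CpG islands lay under 11.2% and 12.6% of upstream members in R248W and 13.1% and 10.8% in WT, against 31.8, 34.0, 33.0 and 30.8% of downstream members in the same order. Upstream medians of signal were 65, 52, 53 and 65, against 74, 56, 58 and 71 downstream. Upstream minus downstream, the CpG island share averaged -20.5 ± 0.654 points, the log2 signal ratio -0.14 ± 0.03, the length -168 ± 20.8 bases and the share also called in the other 3 libraries -3.17 ± 1.4 points (SD, n = 4 libraries). Each was negative in 4 of 4 libraries (two-sided exact sign-flip test, p = 0.13, adjusted p = 0.13 over 4 measures). The downstream window ends nearer to the start, and its part in these differences was not tested. In bins of distance, an interval was counted once per flanked gene. At 1000 to 1500 bases downstream the median signal was 69.5 and 55 in R248W and 57 and 70 in WT. At the same distance upstream it was higher in each library, at 73 and 59.5 in R248W and 66.5 and 71 in WT. The CpG island share was lower at larger distances upstream. It was 49.0, 50.4, 50.9 and 48.7% from 1000 to 1500 bases downstream and 37.4, 37.5, 38.3 and 35.1% at the same distance upstream, but 8.70, 9.24, 9.69 and 7.73% from 6500 to 7500 bases upstream.

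**Figure D2:**
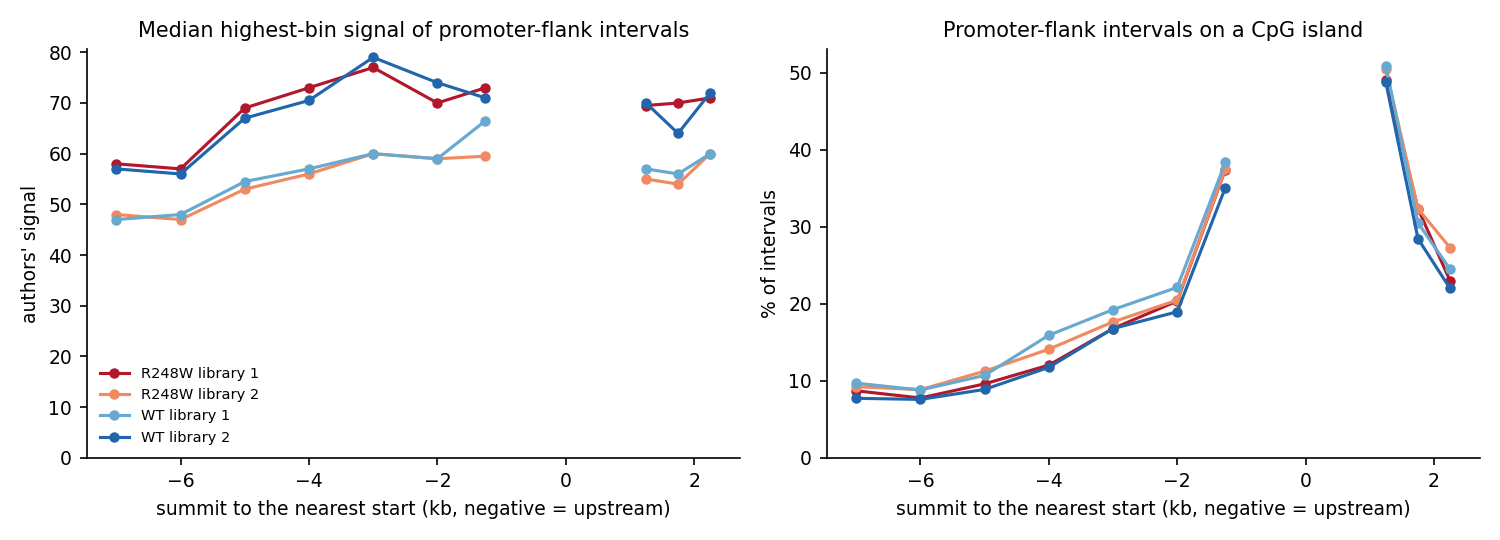
Median highest-bin signal and CpG island share of promoter-flank intervals by the distance from summit to the start of each flanked gene (kb, negative is upstream), 1 line per library. An interval counts once per flanked gene, so the distance is not always to the nearest start that the axis names. Signal is lowest beyond 5.5 kb upstream in each library, and the CpG island share is highest next to the start and is larger downstream than upstream at 1000 to 1500 bases.

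At the limit of 1000 bases the members just inside the rule had signals near those just outside it and less often lay on a CpG island. With the nearest start over 1000 and up to 1250 bases away, the median signal was 74.5 and 56 in R248W and 60 and 70 in WT, against 76.5 and 61 in R248W and 59 and 72 in WT from 750 to 1000 bases, just outside the rule. CpG islands lay under 52.2, 47.6, 50.5 and 47.7% of the first set and 52.3, 59.6, 58.8 and 51.8% of the second, and 75, 80.2, 92.0 and 70.5% of the first set and 78.3, 85.4, 93.2 and 77.5% of the second were also called in the other 3 libraries.

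The density of members around a gene depended on whether that gene had a start-site interval. Counting all intervals without a summit within 1000 bases of a start, genes with a start-site interval had 42.9 and 32.4 per kb per 1000 genes at 5.5 to 7.5 kb upstream in R248W libraries 1 and 2, and 32.4 and 43.3 in WT libraries 1 and 2. At 2.5 to 4.5 kb upstream the same genes had 16.6 and 13.4 in R248W and 11.7 and 18.1 in WT. The far density was 2.54 ± 0.17 times the near density (SD, n = 4 libraries, range 2.39 to 2.77, higher in 4 of 4, two-sided exact sign-flip test, p = 0.13). Genes without a start-site interval had 43.1 and 36.3 in R248W and 32.1 and 45.2 in WT far upstream, and 47.2 and 39.4 in R248W and 34.4 and 48.9 in WT near, a ratio of 0.922 ± 0.00898. Far upstream the mean densities were 37.8 ± 6.20 with and 39.2 ± 6.05 without a start-site interval, and near the start 14.9 ± 2.93 and 42.5 ± 6.79 (SD, n = 4 libraries), so the gene sets differed in the near stretch. Only genes assigned to some interval were counted. A gene without a start-site interval in a library was therefore counted through another interval or another library. This can raise the density of that set, and its part in the difference of levels was not tested.

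The change was a step close to 5 kb from the start, and it was also present on the gene side. For genes with a start-site interval, the density was 31.1 and 25.0 in R248W and 23.9 and 33.7 in WT between 5500 and 5000 bases upstream, but 18.9 and 16.1 in R248W and 14.0 and 19.7 in WT between 5000 and 4500 bases. Downstream it was 31.4 and 26.0 in R248W and 24.6 and 34.5 in WT between 5000 and 5500 bases, against 17.9 and 13.0 in R248W and 11.7 and 18.1 in WT between 4500 and 5000 bases. The far over near ratio downstream was 2.64 ± 0.213 with a start-site interval and 0.866 ± 0.0195 without. Genes with a start-site interval over genes without gave a ratio of these ratios of 2.59 to 2.96 upstream and 2.84 to 3.42 downstream, above 1 in 4 of 4 libraries (exact p = 0.13 each).

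**Figure D3:**
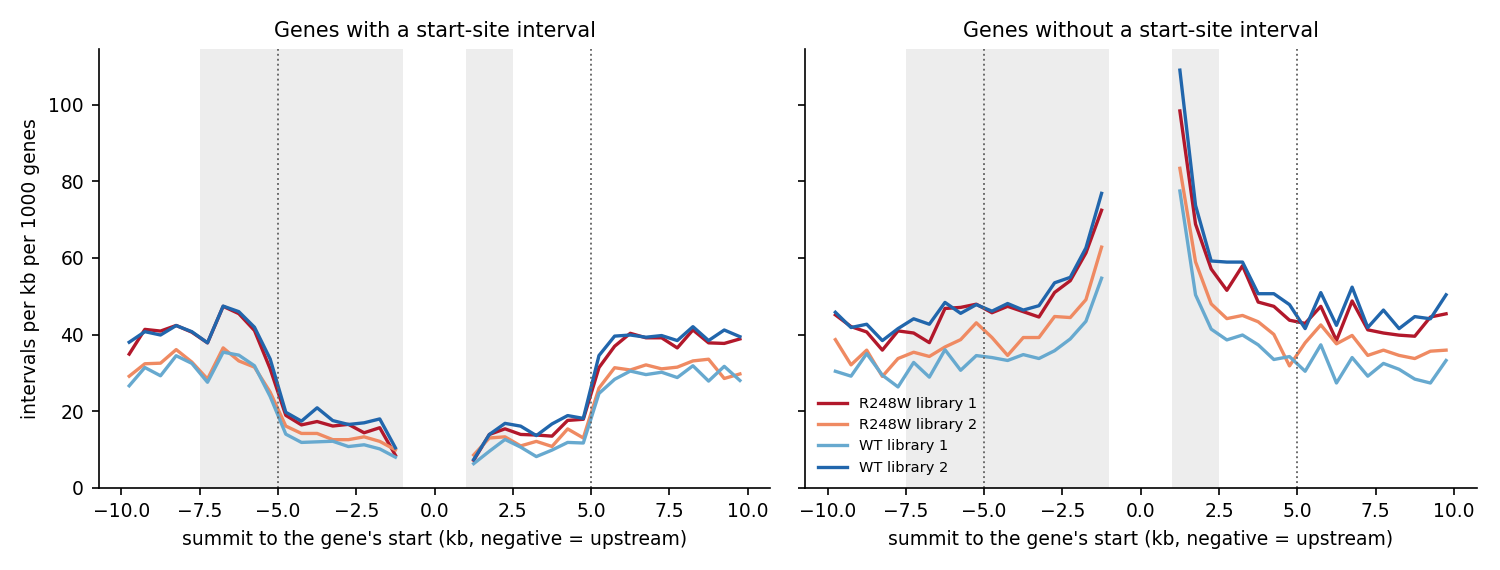
Intervals with no summit within 1000 bases of a start, per kb and per 1000 genes, by the distance from summit to the gene's start (kb, negative is upstream, bins of 500 bases), for genes with and without a start-site interval in that library, 1 line per library. Grey marks the promoter flank and dotted lines 5 kb. Genes with a start-site interval drop at 5 kb on both sides in all 4 libraries, and genes without one do not.

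The intervals called inside the step were the stronger ones. At 2.5 to 4.5 kb upstream of genes with a start-site interval the median signal was 91 and 69 in R248W and 70 and 89 in WT, and the 10th percentile 44.2 and 37 in R248W and 36.3 and 39 in WT. At 5.5 to 7.5 kb upstream the medians were 58 and 48 in R248W and 48 and 56 in WT, and the 10th percentiles 28 and 26 in R248W and 26 and 27 in WT. Near genes without a start-site interval the 10th percentile was 27 ± 1.2 at the near distance and 26.2 ± 0.96 at the far one (SD, n = 4 libraries). The size of the step also differed with the strength of the start-site interval. With its signal above the library's median, the far over near ratio upstream was 5.21 and 4.27 in R248W and 4.86 and 4.42 in WT. With its signal at or below the median the ratio was 1.77, 1.74, 2.02 and 1.68, lower in 4 of 4 libraries (two-sided exact sign-flip test, p = 0.13). On the gene side the ratios were 4.64, 5.02, 5.63 and 4.54, against 1.93, 1.73, 2.04 and 1.72.

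The submitters' processing notes name the peak caller MACS 1.4.2. Such callers set a local background from the reads around a candidate, and no source used here gives the width, so the part of the caller in the step was not tested. With the best 50% of each library's intervals the step was smaller, with a log2 ratio of ratios of 0.80 upstream and 0.85 downstream, against 1.46 and 1.6 with all intervals.

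A flank interval often lay by a gene without a start-site interval. The classes go by the summit, so a flank region can itself cover the start of its gene. Those at Lrp8, Add3, Per1 and Mex3b and the one inside Mecom do so. How many did so was not counted, so a gene without a start-site interval cannot be read as having a closed start. Of 20811 genes assigned to any interval, 6864 (33%) had a flank region. A start-site interval was present in all 4 libraries for 2945 of them (42.9%), in 1 to 3 libraries for 878 and in none for 3041 (44.3%), whereas of the 13947 genes without a flank region 9572 (68.6%) had one in all 4 libraries. Genes without a flank region were counted only if they had another interval, such as a start-site interval. The way genes were counted thus raises the second share, so the 2 shares are not a like comparison. By interval, 48.0% and 46.1% of members in R248W and 44.9% and 48.6% in WT had a flanked gene with a start-site interval in the same library. For 1849 genes a flank interval was present in all 4 libraries and a start-site interval in none. Where a gene had both in a library, the flank interval had the higher signal for 29.2% and 32.5% of genes in R248W and 30.0% and 29.3% in WT. Most flanked genes, 5791, had 1 flank region, 997 had 2 and 76 had 3 or more, with at most 4, at Fam78a and Tmem40.

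Part of the members lay at gene starts other than those the authors listed for the interval. Counted here were the members on chromosomes with RefSeq starts in the set used, 5681 and 4699 in R248W and 4341 and 5934 in WT. A RefSeq start was within 1000 bases of the summit for 7.60% and 8.30% of them in R248W and 8.66% and 7.41% in WT. For 53.9, 57.2, 57.7 and 55.0% of these it was a start of the flanked gene itself. Members near a RefSeq start had median signals of 101.5 and 78 in R248W and 80 and 103 in WT, against 65, 52, 53 and 65 for the other members. CpG islands lay under 52.5, 54.4, 56.4 and 52.5% of them, against 13.9, 15.3, 15.1 and 13.3%. They were also called in the other 3 libraries more often, in 83.9 ± 6.21% against 71.5 ± 10.9% (SD, n = 4 libraries). Each difference had 1 direction in 4 of 4 libraries (two-sided exact sign-flip test, p = 0.13, adjusted p = 0.13 over 3 measures). Of members on a CpG island, 23.8, 24.3, 26.1 and 24.0% were within 1000 bases of a RefSeq start, so most were not.

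Among upstream members with an interval in all 4 libraries, Zbtb18 ranked first by its lowest percentile within a library, with 931 and 578 in R248W libraries 1 and 2, against 519 and 953 in WT libraries 1 and 2 (chr1:177440543-177444121). Birc2 had 733 and 547 in R248W, against 459 and 827 in WT. Msantd4 had 853 and 595 in R248W, against 427 and 928 in WT. In each the highest values were in R248W library 1 and WT library 2, the libraries with the higher signals in every class. Nfe2, an erythroid and megakaryocyte transcription factor gene, had 680 and 409 in R248W, against 416 and 654 in WT, 3048 bases upstream and off any CpG island (chr15:103257327-103259309). Per1, a circadian clock gene, had 642 and 423 in R248W, against 396 and 631 in WT, in an open region of 7300 bases. Ranked with these were let-7a-1 with let-7f-1, LOC101055751, Plcxd1, Mex3b, which encodes an RNA-binding protein, and Large, a glycosyltransferase gene. Across the 10 regions the signals ran from 621 to 931 and 387 to 595 in R248W, and from 377 to 519 and 631 to 953 in WT.

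Among downstream members, Lrp8, which encodes a lipoprotein receptor, ranked first in the same way, with 820 and 533 in R248W, against 486 and 866 in WT, 1613 bases inside the gene (chr4:107800534-107804765). Add3 had 815 and 551 in R248W, against 522 and 831 in WT, at 2147 bases. Aktip, Gm10789, Arrdc3, the arrestin-domain gene, A930002H24Rik, Ncoa2, a nuclear receptor coactivator gene, Arhgef1, a guanine nucleotide exchange factor gene, Zbtb2 and Mat2b, a methionine adenosyltransferase subunit gene, completed the 10. Their signals ran from 507 to 820 and 327 to 551 in R248W, and from 321 to 522 and 525 to 866 in WT. CpG islands lay under 6 of the 10 upstream and all 10 downstream regions. Regions of both sets, such as those at Per1, Mex3b, Lrp8 and Add3, also covered the assigned start itself. The leading regions are therefore not all elements apart from a start. By percentile within the library, both R248W values were above both WT values at 2 of the 10 upstream and 2 of the 10 downstream regions and below at 0 and 2.

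Flank regions were called in all 4 libraries about as often as the average region and far less often than start sites. Of the 7211 regions, 4047 (56.1%) were called in all 4 libraries, against 58% of all merged regions, 88.7% of start-site regions and 50.7% of regions outside promoter windows. Regions called in 3 libraries numbered 1070 (14.8%, against 13.8% of all), in 2 libraries 921 (12.8%, against 12.2%) and in 1 library 1173 (16.3%, against 15.9%). Of the regions called in 1 library, 404 and 144 were in R248W libraries 1 and 2, against 84 and 541 in WT libraries 1 and 2, so most were in the longest lists. Where 1 library lacked the region, that library was R248W library 2 in 377 and WT library 1 in 594 regions, but R248W library 1 in 66 and WT library 2 in 33. A flank interval itself was present in all 4 libraries in 3526 of the 4047, the rest being called by an interval whose summit or window put it in another class, and 557 regions shared a base with a start-site interval of some library.

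**Figure D4:**
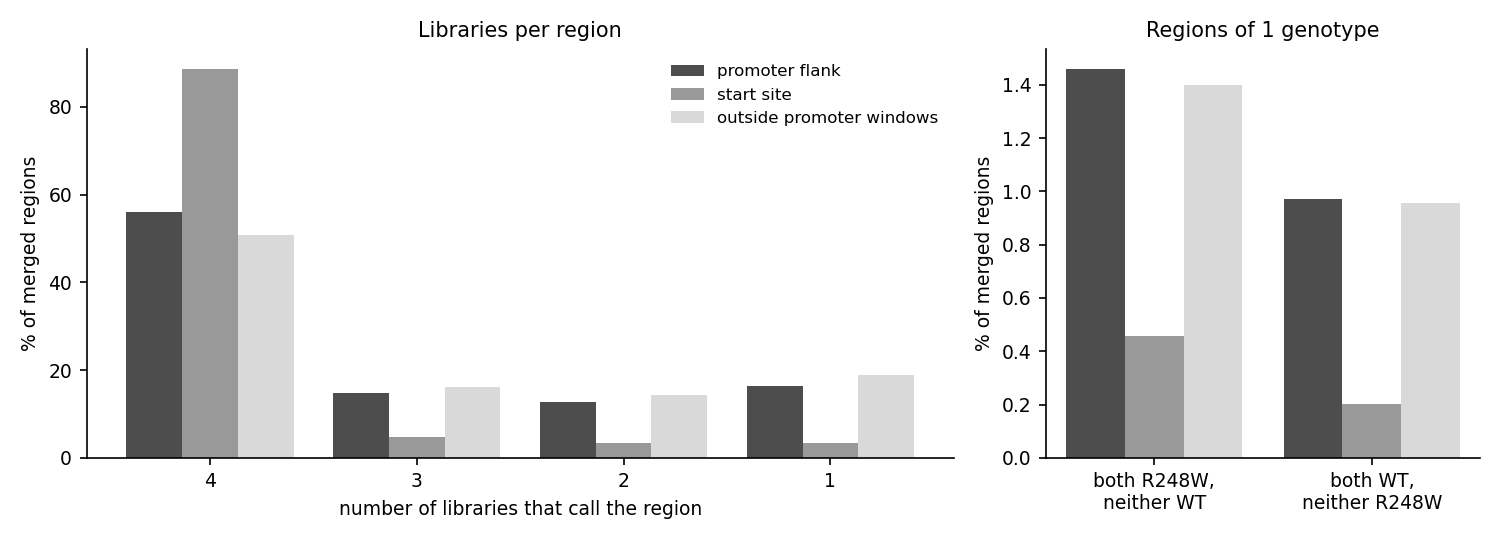
Left, share of merged regions called in 4, 3, 2 or 1 library for promoter-flank regions, start-site regions and regions outside promoter windows. Right, share called in both libraries of 1 genotype and neither of the other. Flank regions were called in all 4 libraries in 56.1%, against 88.7% of start-site regions, and their genotype-only shares lie close to those outside promoter windows.

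Regions of 1 genotype were few, and weaker than regions called in all 4 libraries. There were 105 called in both R248W libraries and neither WT library (1.46%, against 1.23% of all merged regions) and 70 called in both WT libraries and neither R248W library (0.971%, against 0.827% of all). Regions called in exactly 1 library of each genotype numbered 539 for R248W library 1 with WT library 2, the longest lists. They numbered 138 for R248W library 2 with WT library 2, 53 for R248W library 1 with WT library 1 and 16 for R248W library 2 with WT library 1. The median of their lower signal was 29 for R248W-only and 29.5 for WT-only regions, against 55 for the lowest signal of regions called in all 4 libraries. Signals of the other regions called in 2 libraries were not compared, so the lower signal cannot be called particular to regions of 1 genotype. An interval of the other genotype lay within 2000 bases for 43 R248W-only regions (41.0%) and for 30 WT-only regions (42.9%). CpG islands lay under 14 of the 105 (13.3%) and 4 of the 70 (5.71%), against 965 of 4047 (23.8%) of the regions called in all 4. A region that is open in fewer cells and one that is less open per cell cannot be told apart in these bulk lists, and an interval missing from a list can be one just under the caller's limit.

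These counts rested on each library. Without R248W library 1, 3.68% of the regions were R248W-only and 6.55% WT-only, against 3.65 and 5.81% of all merged regions. Without R248W library 2 the shares were 7.21 and 1.92%, against 6.73 and 1.41% of all, and without WT library 2 they were 10.5 and 2.34%, against 10.3 and 2.05% of all. Without WT library 1, WT-only regions made up 8.66%, against 8.18% of all, and R248W-only regions 1.97%, against 1.6% of all. Leaving a library out makes the rule looser, since 1 call or 1 missing call then stands for a genotype. With the best 50% of each library's intervals, 56 regions were R248W-only (1.46%, against 1.08% of all) and 40 WT-only (1.04%, against 0.711% of all).

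Among the R248W-only regions, the strongest lay upstream of Tango2 and Arvcf, a catenin gene, with 206 and 130 in R248W libraries 1 and 2 (chr16:18345067-18346040). The nearest WT intervals were 519 and 461 bases away. Bola1, a mitochondrial protein gene, had 136 and 97 downstream of its start at 2386 bases, and its nearest WT intervals were 21424 and 12806 bases away, so it did not adjoin a WT interval. LOC100861645 had 148 and 86, Irf2bpl 107 and 82, and Camk2g, a calcium/calmodulin-dependent kinase gene, 105 and 73, each with WT intervals within 2000 bases. Mta3, a subunit gene of the NuRD chromatin complex, had a flank interval of 79 in R248W library 2, and R248W library 1 called the region by a start-site interval of 83. The others were E2f6 with Greb1, Kremen2 with 9530082P21Rik and Paqr4, Tmem50a and Stat4, a cytokine-signaling transcription factor gene, with lower signals of 53 to 56. Of the 10, 6 were upstream and 4 downstream, 1 was on a CpG island and 8 had a WT interval within 2000 bases.

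Among the WT-only regions, Gsk3a, a glycogen synthase kinase gene, stood highest with 236 and 397 in WT libraries 1 and 2, 1509 bases upstream (chr7:25239005-25240040). The nearest R248W intervals were 6284 and 7632 bases away. Hs3st3b1, a heparan sulfate sulfotransferase gene, had 102 and 172. A region upstream of Hoxa7, a homeobox gene of the stem cell program, and Mira had 102 and 146 at 3283 bases from Hoxa7, with R248W intervals 2349 and 1963 bases away. Dhx9, an RNA helicase gene, had 94 and 100 with R248W intervals 323 and 361 bases away. Among the others, Exoc3l2 with Mark4, Gm19703, Atp5o, an ATP synthase subunit gene, Bcas2, a splicing factor gene, and C130060C02Rik had lower signals of 63 to 73. All of the 10 ranked regions were upstream, 2 were on a CpG island and 8 had an R248W interval within 2000 bases.

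**Figure D5:**
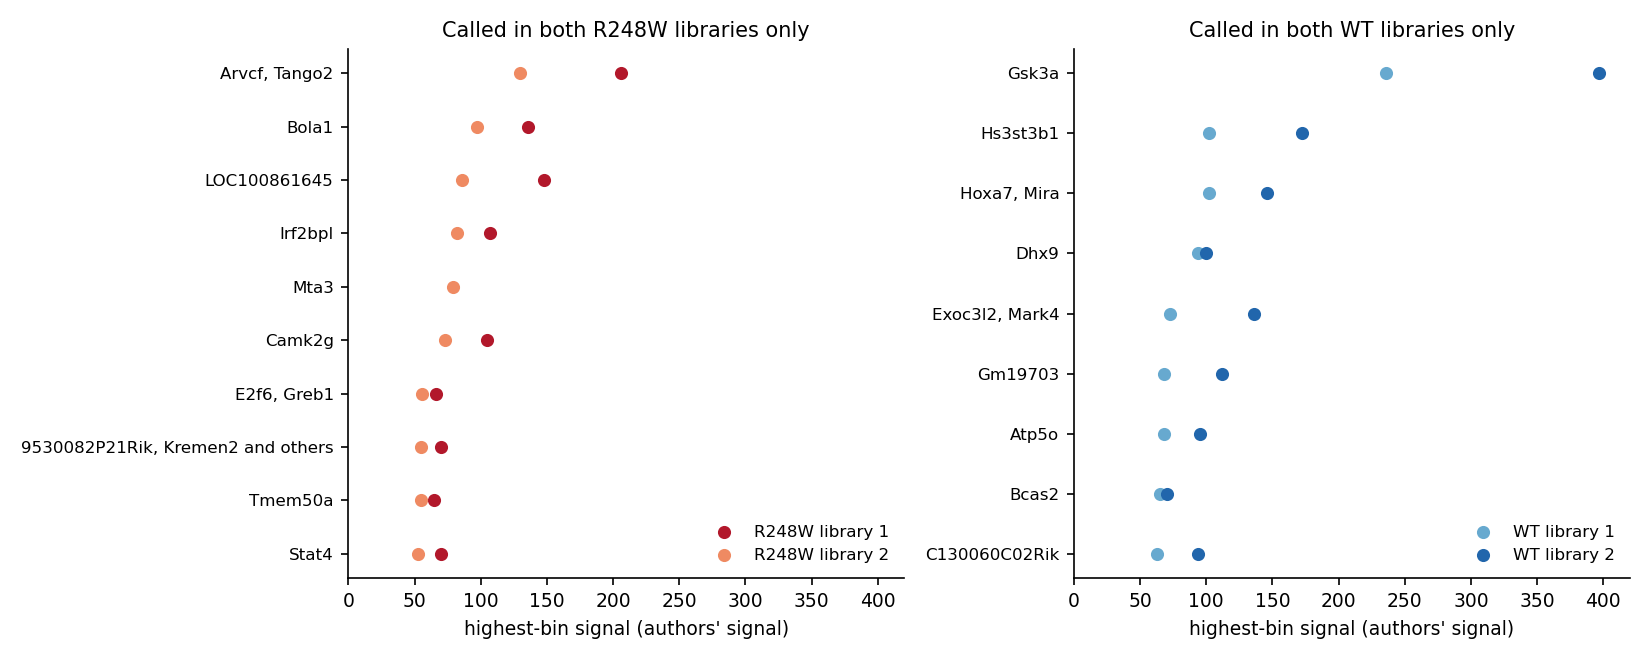
Highest-bin signal of the 10 strongest promoter-flank regions called in both R248W libraries and neither WT library (left) and of 9 of the 10 strongest called in both WT libraries and neither R248W library (right), 1 point per library and named by flanked gene. Each point is the flank interval's value, so Mta3 has 1 point. Only Gsk3a exceeds 206 in both of its libraries.

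None of 7 measures of the flank intervals differed between genotypes beyond the spread between libraries. The CpG island share averaged 17.6 ± 1.28% in R248W and 17.4 ± 1.74% in WT, and the upstream share 75.4 ± 0.406% in R248W and 75.2 ± 0.0585% in WT (SD, n = 2 libraries each). Signal relative to start-site intervals of the same library was 0.412 ± 0.0484 in R248W and 0.408 ± 0.0388 in WT, and relative length 0.652 ± 0.024 in R248W and 0.658 ± 0.0219 in WT. The share also called in the other 3 libraries was 71.4 ± 9.23% in R248W and 73.8 ± 15.7% in WT. The unadjusted p was 0.667 for relative length and 1 for the other measures (two-sided exact permutation test, adjusted p = 1 over 7 measures), in a design that cannot go below 0.33. With every distance above 2000 bases the upstream shares of both R248W libraries were just above those of both WT libraries, with R248W minus WT at 0.399 points (SD 0.214 in R248W and 0.351 in WT, n = 2 libraries each, exact permutation test, unadjusted p = 0.333, the smallest possible). These p-values do not show that the genotypes are alike.

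By gene group, blood lineage genes and most other lists were more often flanked than the average gene, as a description with no test. Of 20 lymphoid genes 15 had a flank region (75%, against 33% of all assigned genes), of 14 assigned T, NK and B cell markers 9 (64.3%), of 19 myeloid genes 11 (57.9%), of 19 AP-1 and early-response genes 10 (52.6%), of 17 erythroid and megakaryocyte genes 8 (47.1%) and of 30 stem cell genes 14 (46.7%). Chromatin regulators had 11 of 24 (45.8%), interferon-stimulated and NF-kappaB genes 9 of 24 each (37.5%), p53 targets 10 of 30 (33.3%), and inflammasome and cell cycle genes 7 of 24 each (29.2%). Mast cell, basophil and eosinophil markers had 4 of 9 (44.4%) and stroma and endothelium markers 6 of 14 (42.9%), so the higher share was not particular to blood lineage genes. The median number of flank regions per gene was 1 in the lymphoid, lymphocyte marker, myeloid and early-response lists and 0 in the others, and 0 over all genes. A flank region called in all 4 libraries was present for 20% of all genes. By list the shares were 50% of T, NK and B cell markers, 42.1% of early-response genes, 41.7% of chromatin regulators, 40.0% of stem cell genes, 35.7% of stroma and endothelium markers, 33.3% of NF-kappaB genes and 31.6% of myeloid genes. They were 30.0% of lymphoid genes, 29.4% of erythroid and megakaryocyte genes, 29.2% of interferon-stimulated genes, 25.0% of inflammasome genes, 20.8% of cell cycle genes, 16.7% of p53 targets and 11.1% of mast cell, basophil and eosinophil markers.

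p53 target genes had flank regions in both genotypes. Cdkn1a, the cell cycle inhibitor gene, was covered inside the gene, with a summit 4502 bases from its start (chr17:29093171-29096273). R248W library 1 split the stretch into a flank interval of 83 and a neighboring interval of 268 outside the promoter window, and R248W library 2 had 1 interval of 196, against 169 and 259 in WT. Sesn2, a stress-induced regulator, had 426 and 269 in R248W, against 275 and 372 in WT, 5192 bases upstream. Rbm38, an RNA-binding protein gene, had 235 and 152 in R248W, against 183 and 251 in WT, 1870 bases upstream. Plk3, a kinase gene, had 75 and 49 in R248W, against 42 and 72 in WT. By percentile within the library, Rbm38 lay at 91.83 and 91.25 in R248W, against 93.92 and 93.34 in WT, and Sesn2 and Plk3 overlapped. Cdkn1a lay at 59.72 and 95.08 in R248W, against 92.59 and 93.90 in WT. Its 59.72 is that of the flank interval of 83, as the neighboring interval of 268 is not a flank interval. A flank interval of 268 in that library, at Itga2b, lay at 93.99, so the overlap at Cdkn1a rests on the split. Bax, the pro-apoptotic effector gene, had 58 and 31 in R248W, against 52 in WT library 2 and no call in WT library 1, where the nearest interval was 3124 bases away. Btg2, Bbc3, Aen, Polk and Ddb2 were also flanked, 0 of the 30 had a region of 1 genotype, and Trp53 and Mdm2 had no flank region. Over all genes 0.572% had an R248W-only and 0.37% a WT-only flank region.

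Stem cell genes were flanked mostly in both genotypes. Mecom, a stem cell transcription factor gene, had 410 and 258 in R248W, against 224 and 329 in WT, 1039 bases inside the gene, and 249 and 187 in R248W, against 130 and 264 in WT, 5713 bases upstream. Fli1, an ETS factor gene, had 205 and 112 in R248W, against 143 and 180 in WT. By percentile within the library, the Mecom region inside the gene lay at 98.06 and 97.73 in R248W, against 96.47 and 96.42 in WT, and the upstream Mecom region and Fli1 overlapped. Hoxa7 had 3 flank regions. The one 1005 bases inside the gene had 194 and 127 in R248W, against 112 and 178 in WT (percentiles of 88.01 and 87.20 in R248W, against 83.32 and 86.89 in WT), the upstream one was the WT-only region above, and the third, shared with Hoxa9, was called in R248W library 2 alone, with 90. Kit and Ly6a had none.

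Lineage genes carried flank regions in these progenitor cells. Gata3, the T cell factor gene, had 467 and 313 in R248W, against 230 and 432 in WT, 1080 bases upstream. No library had a start-site interval for Gata3, but this region of 5402 bases itself reached over the start. Dntt, the gene of the enzyme that adds bases to antigen receptor joints, had 206 and 108 in R248W, against 118 and 192 in WT, 6843 bases upstream. Lck, a T cell kinase gene, had 201 and 130 in R248W, against 132 and 175 in WT. Csf1r, the macrophage growth factor receptor gene, had 321 and 170 in R248W, against 170 and 285 in WT, 3068 bases inside the gene. A region upstream of Prtn3, a granule protease gene, had 159 and 112 in R248W, against 106 and 160 in WT. Klf1, an erythroid factor gene, had 241 and 167 in R248W, against 152 and 234 in WT. Itga2b, the megakaryocyte integrin gene, had 268 and 252 in R248W, against 221 and 350 in WT. All were called in 4 libraries. By percentile within the library, Gata3 lay at 98.82 and 98.71 in R248W, against 96.83 and 98.51 in WT, and Klf1 at 92.31 and 92.87 in R248W, against 90.67 and 92.21 in WT, while the other 5 overlapped. Among these lists the only regions of 1 genotype were WT-only, at Hoxa7 and at Bcl11b, a T cell factor gene, with 32 and 37.

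Inflammatory and early-response genes were also flanked in both genotypes. Il1b, which encodes interleukin-1 beta, had 237 and 184 in R248W, against 147 and 235 in WT, 2336 bases upstream (chr2:129372805-129374162). Il1a had 129 and 83 in R248W, against 92 and 123 in WT, and neither gene had a start-site interval. Irf1 had 305 and 208 in R248W, against 222 and 314 in WT. Fosb, an AP-1 subunit gene, had 515 and 296 in R248W, against 332 and 513 in WT, 6627 bases upstream. Kdm6b, a histone demethylase gene, had 355 and 229 in R248W, against 200 and 357 in WT, 5301 bases upstream. By percentile within the library, Irf1 lay at 95.40 and 95.86 in R248W, against 96.42 and 95.94 in WT, and Il1b, Il1a, Fosb and Kdm6b overlapped. The chemokine gene Ccl5 had 1 region called in all 4 libraries (49 and 35 in R248W, against 40 and 49 in WT) and a WT-only region with 35 and 33 further upstream. Runx2, a bone factor gene of the stroma list, had a WT-only region with 29 and 28. Nlrp1a and Nlrp1b had no flank region.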

How the data were processed

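ATAC-seq intervals of 4 libraries of LSK cells, 2 from p53R248W/+ and 2 from p53+/+ mice by the genotype in their labels, were read from 1 deposited table. MACS 1.4.2 and the build mm10 are named in the submitters' processing notes. No source used here gives aligner, filters, shift of read ends, depth or normalization, so depth is unknown. Per the file headers, each interval has a highest-bin signal and a mean-bin signal made by the authors, with other values (length, CpG islands, promoters, genes, distances). Positions are printed 1-based on mm10.

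Members were rows with at least 1 promoter and every distance above 1000 bases. The members, the 14 gene lists (304 genes, 292 with an interval, 7 matched by an older symbol) and the tests were chosen with earlier results of these data known. Flanked genes were those whose window of 7500 bases before to 2500 after the start the interval touched, which equaled the authors' promoter number in 69656 of 69661 promoter intervals. A region was called in a library when any of its intervals shared a base. Libraries were compared by two-sided exact permutation or sign-flip tests with Benjamini-Hochberg adjustment, at 0.05. Merging, calling and tests were tested on simulated data. Named regions were the 10 upstream and 10 downstream with the highest lowest percentile of signal in their library's flank intervals, 10 per genotype by the lower signal, up to 4 per list and all of 10 fixed genes. The promoter sequences, the genes with no start-site interval, the microRNA set and the regions of Hoxa7, Bcl11b, Ccl5, Runx2, Fam78a and Tmem40 were chosen after values were seen. A few genes of these lists, 1 of them a ranked WT-only region, are not reported here. Percentiles of signal within a library were set beside each other for the genotypes after the data were seen. RefSeq starts came from GRCm38.p6. Wilson 95% intervals of the per-library shares of members (placing, CpG islands, calls) reached at most 3.01 points either side and cover counting error only. Python 3.11.15, pandas 2.3.3, numpy 2.4.6, scipy and matplotlib 3.10.9 were used.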

Additional observations from a re-analysis of the deposited data

How the results depend on the processing

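Of 115 alternative values for 20 results, not counting those without 1 library, 104 kept the direction of a difference or stayed within 1.5 times a count, 8 changed sign and 3 counts moved further. The differences between promoter-flank and start-site intervals, between upstream and downstream members, and in the 5 kb step kept their sign under every alternative tried, and those for the last 2 were added after the data were seen. Some of the values that kept their direction could not change. A replicate block leaves a genotype difference as it is. The step does not use the distance limit, so its values above 2000 bases repeat the main ones. The split of genes by start-site signal is a different ratio that was counted as an alternative for the step. None of the alternatives matched upstream and downstream members by distance. The differences between genotypes were small and some changed sign. With the same number of intervals per library (46720), R248W minus WT was -6 intervals, -0.10 points of upstream share and -0.29 points of members whose gene had a start-site interval, and this last measure was also -0.20 with distances above 2000 bases, -0.24 with the best 50% and -0.18 with exactly 1 assigned gene, against 0.26. The relative signal was -0.0011 without X and Y and -0.0030 with 1 assigned gene, against 0.0039. With the best 50% of each library, 2122 regions were called in all 4 libraries (55.3%, against 60.5% of all merged regions), 56 in R248W only (1.46%, against 1.08%) and 40 in WT only (1.04%, against 0.711%). Without 1 library, R248W minus WT ranged from -756.5 to 873.5 intervals, R248W-only regions ranged from 139 to 690 and WT-only regions from 134 to 612, as the rule is then looser. The causes were not tested. Same-numbered libraries did not deviate together (correlation -0.0336 over 3526 regions). Whether the numbers pair them is not stated, and this correlation cannot settle it. With a replicate block the difference in intervals per library was 58.5 and p was 1, and no call changed, in a test that cannot go below 0.5. Motif windows of other lengths at summits were not run, as no genome sequence was used here. Depth is unknown and the signal scale is not stated, so a weak interval missing from a list cannot be read as closed.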
